A study of Mus musculus with 8 samples.

Results

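The circular RNAs (circRNAs) of 2 host genes, Dcdc2a and Nfkb1, were followed across 8 mouse kidney libraries. Every row of the deposited count table with Dcdc2a or Nfkb1 as its host gene was taken, which gave 2 of 6315 circRNAs: mmu_circ_0004549 of Dcdc2a and mmu_circ_0010477 of Nfkb1. Each host had 1 row, as did 52.7% of the 2834 named hosts, and both circRNAs passed the filter on low counts that left 1471. The pair had been chosen with their levels in injured and control kidneys already known, so their differences from control are given as a description and without a test. Total RNA came from kidneys of C57BL/6L mice aged 8 to 10 weeks. The injured groups were unilateral ureteral obstruction at day 5 (UUO, 3 libraries) and a group labelled acute-chronic at day 5 (AC, 2 libraries). The control group, titled wild type and described in the design text as sham-operated, had 3 libraries. The labels do not say how the acute-chronic state was induced, although the design text names ischaemia/reperfusion, and they do not say whether each library came from its own animal. P-values therefore cover the variation among 8 libraries only, and part of it may be technical.

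CircRNAs are closed loops made when the splicing machinery joins the end of an exon back to the start of an exon upstream, and their level need not follow that of the linear transcript of the host. Dcdc2a encodes a doublecortin-domain protein that binds microtubules and lies in the primary cilium, and mutations of its human counterpart cause a nephronophthisis-type kidney disease. In mouse kidney it is known as a marker of proximal tubule cells that fail to regain their mature state after injury. Nfkb1 encodes the precursor of a DNA-binding subunit of NF-kappaB, the transcription factor family that drives inflammatory genes, and NF-kappaB activity is a known feature of the same failed-repair cells. The linear transcripts of both hosts were not analysed here.

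The files assign the Dcdc2a circRNA to the transcript ENSMUST00000069614 and the Nfkb1 circRNA to ENSMUST00000029812. In GENCODE M21, an annotation of build GRCm38, Dcdc2a lies on the plus strand of chromosome 13 from 25056004 to 25210706, and its source transcript has 10 exons and 6634 bases. Nfkb1 lies on the minus strand of chromosome 3 from 135584655 to 135691547, and its source transcript has 25 exons and 4117 bases. The submitters' processing notes name build mm9, and the back-splice junctions themselves were not located here. Of the 2 hosts, 1 had an entry in the RefSeq promoter table, Dcdc2a. Its 250 bases before the annotated start (GRCm38.p6, chr13:25055754-25056003, plus strand, 5′ to 3′) are shown because NF-kappaB acts through sites in promoters and these circRNAs were both higher in injured kidneys; capitals mark CG dinucleotides.
Dcdc2a promoter: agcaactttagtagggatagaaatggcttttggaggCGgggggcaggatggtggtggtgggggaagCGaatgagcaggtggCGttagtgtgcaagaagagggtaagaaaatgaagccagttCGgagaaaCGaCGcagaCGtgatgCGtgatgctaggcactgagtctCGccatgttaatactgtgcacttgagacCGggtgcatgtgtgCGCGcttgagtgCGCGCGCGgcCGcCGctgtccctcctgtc
The source transcript of the circRNA starts 249 bases after the start that this window precedes. The window held 18 CG dinucleotides and 57.2% G and C, where the median of 32851 windows of the same length was 6 and 52.4%. On either strand it held no match to the kappaB consensus (7.25% of all windows). It held no TATAAA (12.4% of windows) and no GGGCGG (32.7% of windows). These letters are not in this window, and nothing about binding follows from that.

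Libraries held between 40865 and 65145 circRNA counts, and 1 count was worth between 18.9 and 29.2 CPM, the count scaled to the library's total over tested circRNAs with TMM factors. In bulk RNA, a larger number of cells that make a circRNA and more of it per cell cannot be told apart.

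The Dcdc2a circRNA went with injury in every library. It had 125, 151 and 170 counts in UUO replicates 1 to 3 and 97 and 85 in AC replicates 1 and 2, against 5, 4 and 4 in control replicates 1 to 3. The lowest injured library thus lay far above the highest control library, and the injured and control groups did not overlap. The same absence of overlap, with the injured group higher, was seen for 13.3% of all tested circRNAs in UUO against control and 15.4% in AC against control; both comparisons share the 3 control libraries, and the pair was selected on them, so nothing is read from these shares. Among all circRNAs of a library, ordered by count, it held places 38 to 48 in UUO and 68 and 71 in AC, against places 1490 to 2110 in control. It was therefore one of the abundant circRNAs of the injured kidney and an ordinary low-count circRNA of the control kidney. The fitted fold change was 35.3 in UUO against control, with a 95% interval from 22.0 to 56.6. It was 24.5 in AC against control, with an interval from 14.9 to 40.4. These intervals take no account of the selection of the pair on these contrasts, so they are descriptions and not tests. A control count of 4 has an exact 95% Poisson interval from 1.09 to 10.2.

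The Nfkb1 circRNA differed far less between groups. It had 60, 68 and 79 counts in UUO and 80 and 71 in AC, against 24, 47 and 41 in control. On the CPM scale the values were 1523, 1588 and 1659 in UUO and 1885 and 2071 in AC, against 638, 887 and 848 in control. All 5 injured libraries lay above all 3 control libraries, and control replicate 1 was the lowest of the controls. An injured group above control without overlap was seen for 13.3% of all tested circRNAs in UUO and 15.4% in AC, so nothing is read from this separation. The fitted fold change was 1.996 in UUO against control (95% interval 1.35 to 2.95) and 2.48 in AC against control (1.62 to 3.80). Here too the intervals take no account of the selection of the pair and are not tests. Unlike the Dcdc2a circRNA, it was already well covered in control kidney, at places 275 to 393 by count, and moved to places 123 to 138 in UUO and 93 and 97 in AC.

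**Figure D1:**
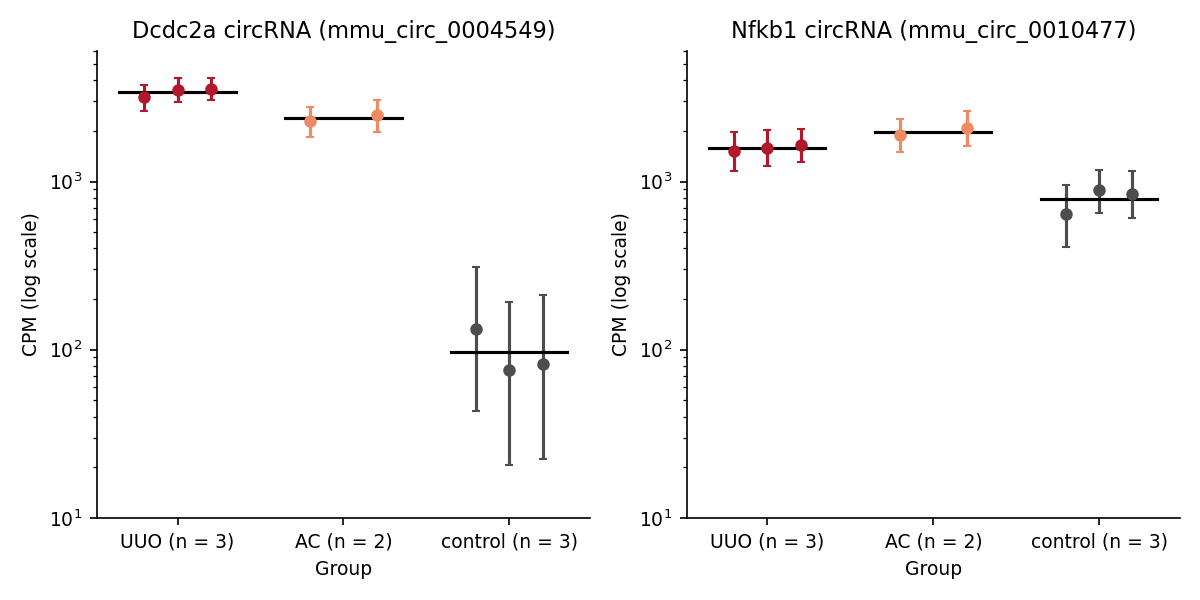
CPM of the Dcdc2a circRNA (left) and the Nfkb1 circRNA (right) in each library on a log axis, by group; points are libraries, vertical lines exact 95% Poisson intervals of the count (counting error only) and horizontal lines group means. The Dcdc2a circRNA lies between 2285 and 3569 CPM in the 5 injured libraries and between 75.5 and 133 CPM in the 3 controls, while the Nfkb1 circRNA lies between 1523 and 2071 CPM in injured and between 638 and 887 CPM in control libraries.

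The chi-square per degree of freedom of the counts around their group mean, which is about 1 where counting is the only source of spread, was between 0.126 and 0.926 over both circRNAs and the 3 groups. The coefficient of variation of the Nfkb1 circRNA was 4.28% in UUO and 6.66% in AC, against 16.9% in control, and counting alone would give 12.04% in UUO and 11.5% in AC, against 16.4% in control. For the Dcdc2a circRNA it was 6.37% in UUO and 5.77% in AC, against 32.2% in control, and counting alone would give 8.20% in UUO and 10.5% in AC, against 48.04% in control. By the coefficient of variation the observed spread was above that of counting in 1 of the 6 cases, Nfkb1 in control. The chi-square per degree of freedom of that case was 0.926, so no spread beyond counting is read from it. The spread that edgeR pooled over all circRNAs, a biological coefficient of variation of 0.413, was larger than the 0.247 and 0.262 it assigned to the Dcdc2a and Nfkb1 circRNAs.

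The deposited signal, the authors' own scaling of each library's counts by a single constant, gave the same order of groups with smaller differences from control. In units of 0.001, the Dcdc2a signal was 13.9 ± 1.39 (SD, n = 3) in UUO and 9.32 ± 0.271 (SD, n = 2) in AC, against 0.462 ± 0.0714 (SD, n = 3) in control. The ratio of mean signals to control was 30.1 for UUO and 20.2 for AC. For Nfkb1 the signal was 6.45 ± 0.452 (SD, n = 3) in UUO and 7.73 ± 0.155 (SD, n = 2) in AC, against 3.99 ± 1.41 (SD, n = 3) in control. Its ratios to control were 1.62 for UUO and 1.94 for AC, and control replicate 2 reached 5.39, close to the lowest UUO value of 5.94. No injured library of either circRNA overlapped with control on this scale. The share of all circRNAs without overlap was not counted on this scale, so nothing is read from that.

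Against all tested circRNAs, the 2 differences from control had very different places. In UUO against control, 6 of 1471 circRNAs had a higher fitted log2 fold change than Dcdc2a, and each of these had at most 1 count in the 3 control libraries together and at most 82 counts in UUO. In AC against control there were 7 such circRNAs, again with at most 1 control count, and at most 54 counts in AC. By contrast 199 circRNAs had a higher fitted change than Nfkb1 in UUO and 107 in AC. The median log2 fold change of all tested circRNAs was 0.016 in UUO and -0.015 in AC. An adjusted p under 0.05 as higher was found for 2.86% of all circRNAs in UUO against control and for 1.9% in AC against control. These shares too are background to a pair selected on these contrasts.

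**Figure D2:**
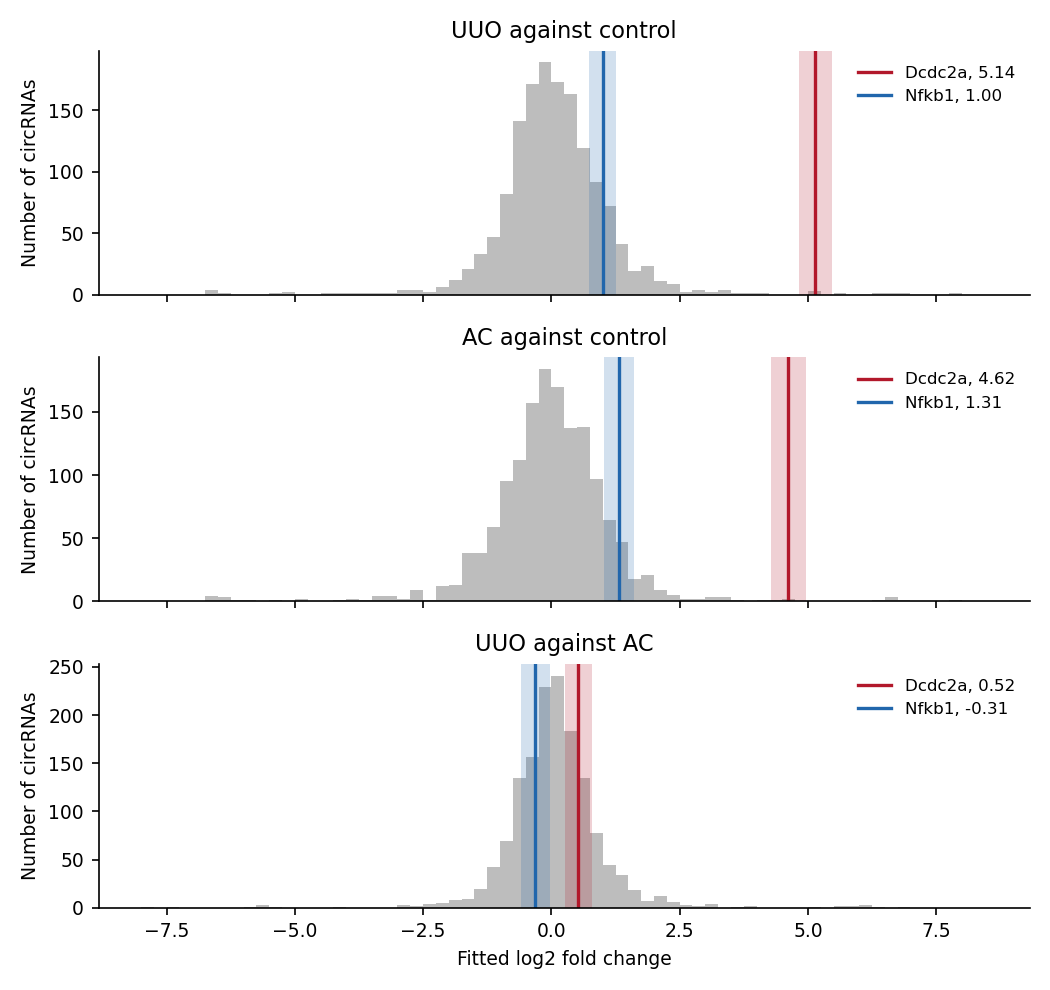
Number of circRNAs by fitted log2 fold change for all 1471 tested circRNAs in UUO against control, AC against control and UUO against AC; vertical lines mark the Dcdc2a and Nfkb1 circRNAs, with bands of 1 standard error. The Dcdc2a circRNA stands in the far right tail of both comparisons with control (5.14 and 4.62), the Nfkb1 circRNA in the right shoulder (0.997 and 1.31), and both lie inside the bulk for UUO against AC.

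The pair was not chosen on the direct comparison of UUO with AC, which was tested. The same UUO and AC libraries entered the choice of the pair, so this test is not fully independent of it. Neither circRNA passed. The Dcdc2a circRNA averaged 3423 CPM in UUO (SD 218, n = 3) and 2382 CPM in AC (SD 137, n = 2). Its fold change was 1.44 (95% interval 0.980 to 2.11; log2 0.52, SE 0.26), with an adjusted p of 0.857 in edgeR's quasi-likelihood test. All 3 UUO libraries lay above both AC libraries, as they did for 13.2% of all tested circRNAs. The Nfkb1 circRNA had the opposite sign, averaging 1590 CPM in UUO (SD 68.1, n = 3) and 1978 CPM in AC (SD 132, n = 2). Its log2 fold change was -0.31 (SE 0.29), or 1.24-fold lower in UUO, with a fold interval from 0.530 to 1.22 and an adjusted p of 0.939 in edgeR. All 3 UUO libraries lay below both AC libraries, as for 11.1% of all tested circRNAs. In this comparison edgeR called 0 of 1471 circRNAs, limma-voom 0 and DESeq2 2, neither of them a member of the pair, and 82 (5.57%) had an unadjusted edgeR p under 0.05. The order of levels was thus UUO, AC, control for Dcdc2a and AC, UUO, control for Nfkb1, and UUO and AC were not separated by the test in either order.

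**Figure D3:**
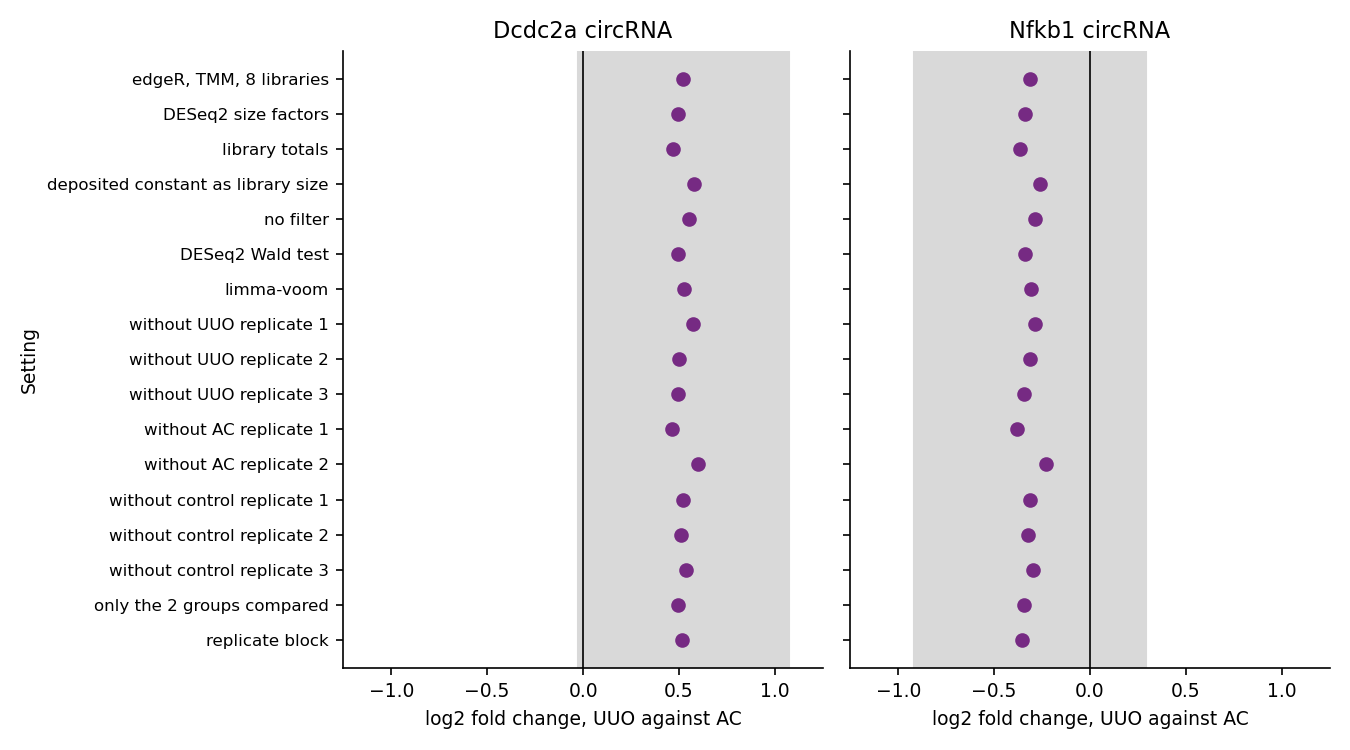
Log2 fold change of the Dcdc2a circRNA (left) and the Nfkb1 circRNA (right) in UUO against AC, under the edgeR fit on 8 libraries (top row) and 16 alternative settings; the grey area is the 95% interval of the fit in the top row. Dcdc2a stays between 0.46 and 0.60 and Nfkb1 between -0.38 and -0.23, and both grey areas include 0.

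Counts of both circRNAs in 1 library give a ratio that needs no scaling between libraries; it was computed after the values had been seen. It compares libraries, not the abundance of the 2 hosts, since the lengths of the circRNAs are not known here. There were 2.08, 2.22 and 2.15 Dcdc2a counts per Nfkb1 count in UUO and 1.21 and 1.20 in AC, against 0.208, 0.0851 and 0.0976 in control. The UUO values lay above the AC values, and both lay far above control. On a log2 scale UUO exceeded AC by 0.84, a 1.79-fold higher ratio. A two-sided exact permutation test gave p = 0.2, the smallest p that 3 against 2 libraries allow. The 95% intervals of counting error reached down to 1.52 in UUO and up to 1.66 in AC, so single libraries of the 2 groups were not fully apart.

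**Figure D4:**
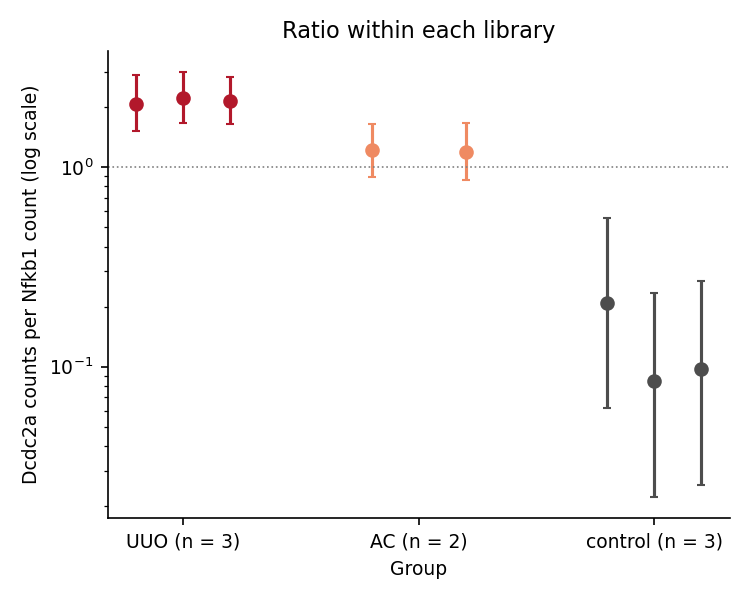
Dcdc2a counts per Nfkb1 count within each library on a log axis, by group, with exact 95% binomial intervals (counting error only); the dotted line marks equal counts. UUO libraries lie between 2.08 and 2.22, AC libraries at 1.20 and 1.21, and control libraries between 0.0851 and 0.208.

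By the Pearson correlation of log2 CPM over the 8 libraries, the circRNAs most like Dcdc2a came from Osmr, the oncostatin M receptor (r = 0.993), Apbb2, an adaptor that binds the amyloid precursor protein (r = 0.987), Espl1, the protease separase (r = 0.986), Psd3, an ARF6 exchange factor (mmu_circ_0001683, r = 0.976), and Samd4, an RNA-binding repressor of translation (r = 0.9705). Those most like Nfkb1 came from Fam160b1 (r = 0.966), Samd4 (r = 0.957), Vav3 (r = 0.951), Espl1 (r = 0.943) and Ephb2, a receptor for ephrin-B ligands (r = 0.940). Samd4 and Espl1 stood in both groups of 5. The Dcdc2a and Nfkb1 circRNAs had r = 0.910 with each other. Of the other tested circRNAs, 26 were more like Dcdc2a than Nfkb1 was, and 11 were more like Nfkb1 than Dcdc2a was. These are descriptions over 8 libraries that fall into injured and control, and any circRNA that separates these gains a high r. The Osmr circRNA had 13, 12 and 18 counts in UUO and 11 and 7 in AC, against 0 in all 3 control libraries, and the Samd4 circRNA 51, 45 and 63 in UUO and 41 and 39 in AC, against 2, 6 and 7 in control. The Apbb2 circRNA, which was well covered in control, had 26, 35 and 36 counts in UUO and 25 and 25 in AC, against 11, 14 and 14 in control. That of Fam160b1 had 81, 106 and 127 counts in UUO and 116 and 105 in AC, against 50, 74 and 62 in control. Like Nfkb1 it had a higher mean in AC than in UUO (2399 CPM in UUO and 2898 CPM in AC). So did Ephb2 (174 CPM in UUO and 220 CPM in AC). The means of Samd4 (1223 CPM in UUO and 1052 CPM in AC) and Vav3 (888 CPM in UUO and 806 CPM in AC) were higher in UUO. Those of Espl1 were nearly equal (285 CPM in UUO and 284 CPM in AC).

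Few genes of the NF-kappaB pathway other than Nfkb1 had a circRNA that could be tested. The 5 lists of subunits, inhibitors, kinases with adaptors and ligases, receptors and targets held 105 genes besides Nfkb1, of which 16 had a listed circRNA. The other 4 subunits and all 26 targets had none. Of 29 circRNAs, 9 from 8 hosts could be tested, and edgeR called 0 of them in UUO against control and 0 in AC against control. DESeq2 and limma-voom also called 0, and an unadjusted edgeR p under 0.05 was found for 1 in UUO and 0 in AC. Of all tested circRNAs, 4.35% were called in UUO against control and 3.33% in AC, so a count of 0 among 9 is near the background and is no result about the pathway. The median log2 fold change of the 9 was -0.100 in UUO and -0.16 in AC, with 3 and 4 positive values. The highest of the 9 was 0.95 in UUO and 0.48 in AC.

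Among the kinases, the circRNA of Chuk, the kinase IKK-alpha, had 38, 27 and 26 counts in UUO and 49 and 40 in AC, against 47, 67 and 67 in control. UUO lay below control without overlap, as for 11% of all tested circRNAs, but the log2 fold change of -0.87 (SE 0.30) did not pass (edgeR adjusted p = 0.131). In AC its log2 fold change was -0.16 (SE 0.33). The circRNA mmu_circ_0013411 of Cul1, the scaffold of the ubiquitin ligase that removes NF-kappaB inhibitors, averaged 1136 CPM in UUO (SD 357, n = 3) and 909 CPM in AC (SD 213, n = 2), against 1105 CPM in control (SD 80.4, n = 3). These groups overlapped. The circRNA of Tnfrsf21, a death-domain receptor, had 34, 29 and 44 counts in UUO and 27 and 58 in AC, against 48, 59 and 72 in control, with log2 fold changes of -0.65 (SE 0.35) in UUO and -0.17 (SE 0.39) in AC. The tested circRNA of Traf3, which restrains the non-canonical branch, had 4 to 13 counts in injured and 8 to 20 in control libraries.

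The label of failed repair could be checked only in part. Of 37 other genes on the failed-repair list, 4 had a listed circRNA (Hif1a, Itgav, Psd3 and Sema5a), and the widely used markers Havcr1, Vcam1 and Ccl2 had none. Of 13 such circRNAs, 4 from Hif1a and Psd3 were tested, and 2 rose in UUO against control and 2 in AC against control, all of Psd3, where 2.86% of all tested circRNAs rose in UUO and 1.9% in AC. Psd3 had 7 listed circRNAs, and was put on the list with its results in these libraries known. Its direction, its adjusted p-values and how they held across settings are therefore descriptions, and not independent evidence for the label. The circRNA mmu_circ_0001683 had 137, 148 and 156 counts in UUO and 83 and 90 in AC, against 34, 46 and 33 in control. It rose 4.16-fold in UUO (log2 SE 0.24, edgeR adjusted p = 1.12e-04) and 2.79-fold in AC (log2 SE 0.27, adjusted p = 0.00736). Its UUO libraries lay above its AC libraries, as for 13.2% of all tested circRNAs. In UUO against AC it did not pass (edgeR adjusted p = 0.852). Its UUO call held in 8 of 8 settings without 1 library. Its AC call ended without AC replicate 2 (adjusted p = 0.0930) or control replicate 3 (adjusted p = 0.0512), and with the deposited constant as library size (adjusted p = 0.0870).

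The second Psd3 circRNA, mmu_circ_0001682, had 78, 103 and 85 counts in UUO and 67 and 104 in AC, against 37, 42 and 41 in control. It rose 2.35-fold in UUO (edgeR adjusted p = 0.0263) and 2.63-fold in AC (adjusted p = 0.0220). In UUO against AC its log2 fold change was -0.16 (SE 0.31), and these groups overlapped. The UUO call held in 3 of 8 settings without 1 library and ended without UUO replicate 1, 2 or 3 (adjusted p = 0.0693, 0.120 and 0.0768) or control replicate 2 or 3 (adjusted p = 0.0520 and 0.0965). The AC call ended without AC replicate 2 (1.78-fold, adjusted p = 0.382) or control replicate 3 (adjusted p = 0.0866). With the deposited constant as library size both calls ended (adjusted p = 0.122 in UUO and 0.141 in AC). The third tested Psd3 circRNA, mmu_circ_0014905, had 14, 21 and 13 counts in UUO and 7 and 3 in AC, against 5, 7 and 0 in control, and did not pass (edgeR adjusted p = 0.249 and 0.870). The Hif1a circRNA had log2 fold changes of -0.24 in UUO and -0.41 in AC and did not pass.

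The protein relatives of Dcdc2a left little to compare. Of 10 other genes of the doublecortin family, 1 had listed circRNAs, Dclk1, a kinase with doublecortin domains, with 11 counts in AC replicate 1 and 0 in the other 7 libraries. Of 19 other nephronophthisis genes, 8 had listed circRNAs, 11 in all, and 1 could be tested, from the zinc finger gene Zfp423. It had 4, 6 and 14 counts in UUO and 17 and 4 in AC, against 3, 9 and 3 in control, and passed in neither comparison (edgeR adjusted p = 0.756 in UUO and 0.649 in AC).

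**Figure D5:**
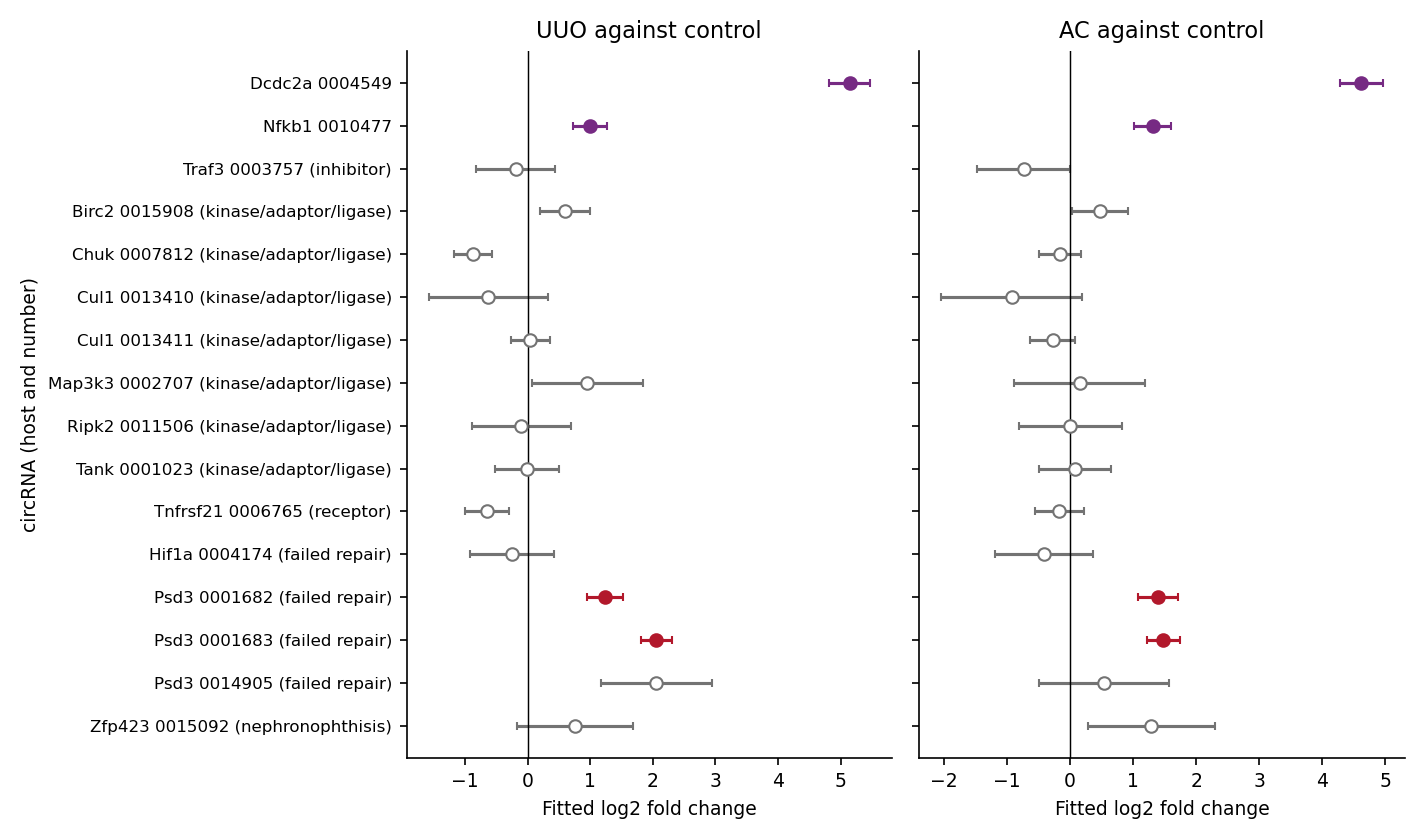
Fitted log2 fold change with 1 standard error in UUO against control (left) and AC against control (right) for the Dcdc2a and Nfkb1 circRNAs (purple, shown without a test) and the tested circRNAs of the NF-kappaB, failed-repair and nephronophthisis lists; filled red points have an edgeR adjusted p under 0.05, open points do not. The 2 filled points are circRNAs of Psd3, which was listed with its results known. The 9 NF-kappaB circRNAs besides Nfkb1 lie between -0.87 and 0.95 in UUO and between -0.93 and 0.48 in AC.

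Markers of kidney cell types gave little to set beside these levels, because 12 of 96 marker genes in 9 lists had a listed circRNA. The proximal tubule list rested on Lrp2 alone, with summed counts of 13 to 27 in UUO and 21 to 26 in AC, against 9 to 92 in control, and the other 17 genes of that list had none. The distal tubule list, mainly Klhl3, had 19 to 36 counts in UUO and 20 to 39 in AC, against 101 to 158 in control. Neither injured group overlapped control in these summed counts. For single tested circRNAs in CPM, the shares below control without overlap were 11% in UUO and 15.4% in AC. Those shares are of an unlike measure and give no background for a sum. A fall with an adjusted p under 0.05 was found for 1.5% of all tested circRNAs in UUO against control and for 1.43% in AC against control. The marker lists were chosen with results of these libraries known, so the adjusted p-values below are descriptions and not independent tests. Wnk1 on the distal tubule list did not fall, with 2, 3 and 2 counts in UUO and 2 and 8 in AC, against 3, 3 and 0 in control. Of the distal tubule circRNAs, mmu_circ_0004688 of Klhl3 fell 5.22-fold in UUO (edgeR adjusted p = 0.0132) and 6.22-fold in AC (adjusted p = 0.0220). The UUO call ended without UUO replicate 1, 2 or 3 (adjusted p = 0.0632, 0.0620 and 0.0768). The AC call ended without AC replicate 1 (3.37-fold, adjusted p = 0.134) or control replicate 3 (adjusted p = 0.0558), and the fall was 33.1-fold without AC replicate 2. The other, mmu_circ_0004687, fell 3.76-fold in UUO (adjusted p = 0.0419), a call that ended without any 1 UUO or control library (adjusted p from 0.0661 to 0.155) and in limma-voom (adjusted p = 0.0806), and did not pass in AC (adjusted p = 0.316). The macrophage list rested on Mertk, with 15 to 34 counts in UUO and 24 in both AC libraries, against 28 to 94 in control. The fibroblast list had 0 to 2 counts in UUO and 0 in AC and control, and the lymphocyte list 0 to 1 in UUO and 0 in AC and control. The thick ascending limb, collecting duct, podocyte and endothelial lists had at most 20 counts in a library, and each injured group overlapped control. The part of cell composition in the levels of the Dcdc2a and Nfkb1 circRNAs was not tested.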

How the data were processed

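CircRNA counts in 8 libraries of total kidney RNA were analysed as deposited by the authors. A deposited signal equals the count over a constant per library (8718 to 11941); multiplied back, 100% of values were whole within 0.01. The submitters' processing notes name HISAT2, StringTie and mm9; the circRNA caller is not stated.

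The counts were tested in R 4.3.3 by edgeR 4.0.16 (quasi-likelihood, 3 groups fitted together, TMM, default low-count filter with minimum 10 and total 15), adjusted by Benjamini-Hochberg over 1471 circRNAs at 0.05. Scripts were tested on simulated data. Standard errors are derived from F. Exact intervals cover counting error only. Alternatives used DESeq2 1.42.0, limma 3.58.1 (voom), other scalings, no filter, 2 groups at a time, a replicate block and leaving out libraries.

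The pair and all lists were chosen with earlier results of these data known. Also named are the 5 circRNAs most like each (log2 CPM, prior count 2), list circRNAs past the threshold and the 2 of highest mean CPM per pathway list; Hif1a, the third Psd3 circRNA, hosts without a tested circRNA and marker totals were added after their values were seen.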

Additional observations from a re-analysis of the deposited data

How the results depend on the processing

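In UUO against AC, 16 alternatives left the Dcdc2a circRNA between 0.46 and 0.60 and the Nfkb1 circRNA between -0.38 and -0.23 on the log2 scale, with adjusted p from 0.695 to 0.9998 and from 0.819 to 0.9998. The number of circRNAs called in that comparison was 0, but 4 with no filter, 2 in DESeq2, 1 when UUO and AC were fitted without control and 0 to 1 without 1 library (1 without AC replicate 1). The pair's direction against control was the same under all 16 alternatives. Scaling by the deposited constant shifted the median over all tested circRNAs to -0.26 in UUO and -0.34 in AC, and the log2 fold changes were 4.88 for Dcdc2a and 0.69 for Nfkb1 in UUO and 4.30 and 0.96 in AC. Without 1 library they were 4.97 to 5.39 (Dcdc2a) and 0.87 to 1.07 (Nfkb1) in UUO, and 4.46 to 4.87 and 1.19 to 1.40 in AC, and both highest Dcdc2a values came without control replicate 1. The background of 64 calls in UUO against control was 37 with the deposited constant (11 higher, 26 lower, against 42 and 22), 103 in DESeq2 and 10 to 75 without 1 library: 26, 10 and 15 without UUO replicates 1 to 3, and 40 and 25 without control replicates 2 and 3. The 49 calls in AC against control were 29 with the constant (7 higher, 22 lower, against 28 and 21), 14 when AC and control were fitted without UUO and 11 to 38 without 1 library: 13 and 15 without AC replicates 1 and 2, 32 without UUO replicate 2 and 11 without control replicate 3. Where 1 AC library was left, its spread was taken from the other groups. The cause of these differences was not tested. Deviations of same-numbered libraries from their group means had correlations from -0.113 to 0.042 over 7 pairs. Such deviations cancel within groups of 2 or 3 libraries, so these values cannot tell whether the numbers pair the libraries. With the replicate number as a block, 12 and 5 circRNAs were called against control and 0 in UUO against AC. The pair's log2 fold changes were then 5.14 and 1.01 in UUO, 4.62 and 1.36 in AC, and 0.52 and -0.36 in UUO against AC. Under that block edgeR's adjusted p for the Psd3 circRNA mmu_circ_0001683 was 0.00301 in UUO and 0.0601 in AC, for mmu_circ_0001682 0.0746 in UUO and 0.137 in AC, for the Klhl3 circRNA mmu_circ_0004688 0.0377 in UUO and 0.0601 in AC, and for mmu_circ_0004687 0.101 in UUO, so 5 of these 7 calls ended. Depth limits the control level of Dcdc2a, 13 counts in 3 libraries.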
